A study of Homo sapiens with 6 samples.

Results

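The genes described here are 10 markers of the mesenchymal state of neuroblastoma, chosen by symbol from the 60651 genes of each count table: the transcription factors *PRRX1*, *SNAI2*, *TWIST1*, *ZEB1* and *ZEB2*, the coactivators *YAP1* and *WWTR1* (TAZ), and the structural and surface genes *VIM*, *FN1* and *CD44*. All 10 passed the filter on low counts. Total RNA, depleted of ribosomal RNA, was sequenced from 6 libraries of a human neuroblastoma cell line, 3 labelled EtOH (ethanol, tagged as control) and 3 labelled Tet (tetracycline, tagged as induction and given for 5 days). The comparison was meant to ask what a tetracycline-regulated change of MYCN, the neuroblastoma oncoprotein, does to the transcriptome.

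The labels did not name 1 cell model. Titles point to IMR-5/75, a *MYCN*-amplified line, and a tag speaks of a knockdown, whereas the protocol text describes single clones of SK-N-SH with a tetracycline-inducible *MYCN* transgene that both groups carry. The study's methods describe both a tetracycline-inducible *MYCN* transgene in SK-N-AS cells and an inducible shRNA against *MYCN* in IMR-5/75 cells. Sample names in the file headers carry the line name of the titles, with -Tet for the libraries labelled EtOH and plusTet for those labelled Tet, where the hyphen may stand for minus. *MYCN* RNA was between 145 and 256 CPM (counts brought to the same library size, with TMM factors) in all 6 libraries and its log2 fold change was only -0.07 (SE 0.23; adjusted p = 0.956 in edgeR), so it did not check which label was induced, and every direction below compares labels only. The libraries held between 27933378 and 40498065 counts, and 3 counts were worth between 0.0741 and 0.107 CPM. EtOH replicate 2 stood apart, with a score of 84.2 on the first principal component (44.7% of the variance) and the lowest mitochondrial share, 4.12% against 5.86% to 10.01% in the others. It had the highest level of the 6 libraries for 4 of the 10 genes, and for 24.8% of all genes tested. Tet replicate 2 was displaced the same way, with a score of 47.3 against -1.81 and -37.7 in the other Tet libraries. Its mitochondrial share, 5.86%, was the next lowest. It was the highest library for 4 of the 10 genes too, and for 14.0% of all genes tested. Results of the 10 genes that rest on EtOH replicate 2 are given with and without that library. The labels do not say whether replicates came from separate cultures. The methods give independent biological replicates as the default for cell culture experiments, without naming these libraries, and p-values measure the spread between these libraries.

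Neuroblastoma cells can take a noradrenergic state, held by factors of sympathetic neuron development such as HAND2 and GATA3, or a mesenchymal state that resembles migratory neural crest. PRRX1 is one of the core regulators of the mesenchymal state. The ZEB, SNAI and TWIST factors are known for repressing epithelial genes in epithelial-mesenchymal transition (EMT), YAP and TAZ carry the output of the Hippo pathway through TEAD factors, and vimentin, fibronectin and CD44 are the filament, matrix and surface products by which mesenchymal cells are usually recognised.

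None of the 10 genes passed the threshold between the labels (edgeR quasi-likelihood test, adjusted p under 0.05), where 0.236% of the 22443 genes tested did. DESeq2, which called 2.70% of all genes, and limma-voom, which called 0.258%, also called none of the 10. An edgeR fit with a replicate block called *SNAI2* and *TWIST1* higher and *PRRX1* lower in Tet, among 421 genes higher and 254 lower. At an unadjusted edgeR p under 0.05 there were 2, *SNAI2* with the higher value in Tet and *PRRX1* with the lower one, beside 10.8% of all genes tested. Groups did not overlap for 3 of the 10, *PRRX1*, *ZEB2* and *CD44*, each with the lower values in Tet, beside 17.5% of all genes. Values were higher in Tet for 4 genes and lower for 6, and their median log2 fold change was -0.17 against -0.01 over all genes tested. This balance rests on EtOH replicate 2. Without it, *YAP1*, *WWTR1* and *VIM* turned to higher values in Tet (log2 fold changes 0.24, 0.08 and 0.06). In bulk RNA, fewer cells of a kind and less RNA per cell cannot be told apart.

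**Figure D1:**
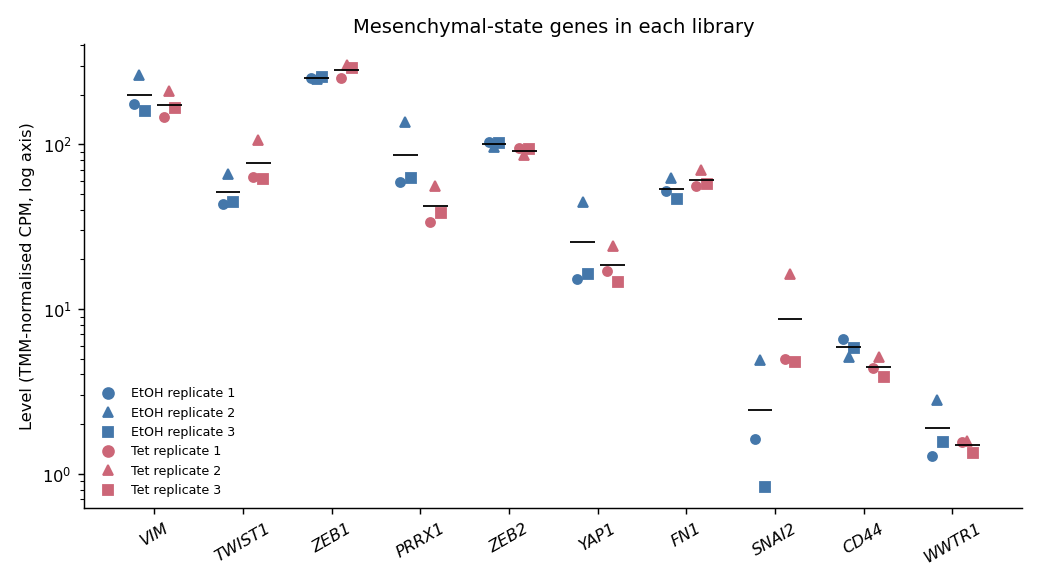
Level of each of the 10 genes, ordered by mean TPM, in each library, in TMM-normalised CPM on a log axis, with blue symbols for EtOH, red symbols for Tet, the symbol shape for the replicate number and black lines for group means of 3 libraries. *ZEB1* and *ZEB2* hold nearly the same level in all libraries, while *PRRX1*, *YAP1* and *VIM* have their highest point in EtOH replicate 2 and *SNAI2* and *TWIST1* in Tet replicate 2.

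Per unit of length, the genes covered a wide range. Length is that of all annotated exons of a gene together, such as 5176 bases for *VIM* and 26111 for *ZEB2*, and the order depends on it. Their mean TPM (counts per exon length, scaled to a common total in each library) over the 6 libraries was 99.3 for *VIM*, 87.7 for *TWIST1*, 84.3 for *ZEB1*, 21.7 for *PRRX1*, 10.1 for *ZEB2*, 9.68 for *YAP1*, 9.09 for *FN1*, 4.62 for *SNAI2*, 1.41 for *CD44* and 0.559 for *WWTR1*. Only 3 neighbouring steps of this order held in all 6 libraries, those from *ZEB1* to *PRRX1*, from *PRRX1* to *ZEB2* and from *CD44* to *WWTR1*. *VIM*, *TWIST1* and *ZEB1* could not be ordered, since *VIM* was above *TWIST1* in 4 of 6 libraries and *TWIST1* above *ZEB1* in 3 of 6. *ZEB2*, *YAP1* and *FN1* could not be ordered either: *YAP1* had the larger mean but was above *FN1* in 1 of 6 libraries, EtOH replicate 2. *SNAI2* varied most within the order, from 0.685 TPM in EtOH replicate 3 to 13.5 TPM in Tet replicate 2.

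*PRRX1* (ENSG00000116132.12, GRCh38 chromosome 1, 170662728 to 170739421, plus strand) encodes the homeobox factor that can drive neuroblastoma cells towards the mesenchymal state. In EtOH replicates 1 to 3, taken in order here and for every gene below, it had 59.5, 136 and 62.5 CPM. The Tet libraries had 33.6, 55.5 and 38.4 CPM. All 3 Tet libraries lay below all 3 EtOH libraries, although Tet replicate 2 came within a few CPM of EtOH replicate 1. The means were 86.2 ± 43.6 CPM for EtOH and 42.5 ± 11.5 CPM for Tet (SD, n = 3 each), which is -1.02 on the log2 scale (SE 0.34, 95% interval -1.80 to -0.24, edgeR adjusted p = 0.317). Without EtOH replicate 2 the difference was -0.51 (edgeR adjusted p = 0.199). Its paralog *PRRX2* had no count in any library.

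*SNAI2* (ENSG00000019549.13, chromosome 8, 48917598 to 48921740, minus strand) encodes SLUG, a repressor that marks migratory neural crest. It had 1.62, 4.87 and 0.826 CPM in the EtOH libraries and 4.96, 16.3 and 4.78 CPM in the Tet libraries. EtOH replicate 2 fell inside the range of Tet, and the other EtOH libraries were below all of Tet. The means of 2.44 ± 2.14 and 8.68 ± 6.60 CPM (SD, n = 3 each) differed by a log2 fold change of 1.84 (SE 0.70, 95% interval 0.25 to 3.43, edgeR adjusted p = 0.389), the widest interval of the 10 genes. In the fit without EtOH replicate 2 the log2 fold change was 2.82 and passed the threshold (edgeR adjusted p = 0.0451), in a fit that called 2.89% of all genes tested. Without Tet replicate 2 it was 1.004 and did not pass. In both groups replicate 2 was the highest library, at 3.98 times the mean of the other EtOH libraries and 3.35 times that of the other Tet libraries. The relatives *SNAI1* and *SNAI3* had 48 and 1.5 counts over all 6 libraries, where a read pair shared between genes counts in part, and were not tested.

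*TWIST1* (ENSG00000122691.13, chromosome 7, 19020991 to 19117636, minus strand), a basic helix-loop-helix factor of cranial mesenchyme and EMT, was at 43.3, 65.7 and 44.5 CPM in EtOH and 63.0, 107 and 61.4 CPM in Tet. EtOH replicate 2 lay above Tet replicates 1 and 3, so the groups overlapped. The means were 51.2 ± 12.6 and 77.1 ± 25.9 CPM (SD, n = 3 each), and the log2 fold change of 0.59 (SE 0.26, 95% interval -0.01 to 1.19) did not pass the threshold (edgeR adjusted p = 0.474). Without Tet replicate 2 it was 0.28, and without EtOH replicate 2 it was 0.82 (edgeR adjusted p = 0.103). Of its exon bases, 7.06% lie under the opposite-strand gene ENSG00000232821, and the counting did not use strand. That gene had 13.0, 6.60 and 11.5 CPM in EtOH and 18.5, 15.4 and 16.1 CPM in Tet, without overlap between the groups (log2 fold change 0.68, edgeR adjusted p = 0.398). Its part in the *TWIST1* values was not tested. *TWIST2* had no count. Of the 11 EMT factors and paralogs listed beside the 10 genes, 5 were tested, with none at an adjusted or unadjusted edgeR p under 0.05. The E proteins with which TWIST1 pairs were abundant and none passed the threshold: *TCF12* had a mean of 95.8 TPM and a log2 fold change of 0.11, *TCF4* 86.5 TPM and -0.06, and *TCF3* 25.7 TPM and 0.25 (edgeR adjusted p between 0.837 and 0.946).

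*ZEB1* (ENSG00000148516.22, chromosome 10, 31318495 to 31529814, plus strand) encodes a zinc finger repressor of epithelial genes. Within EtOH it was the steadiest of the 10 genes, with 253, 251 and 257 CPM, and had 254, 303 and 291 CPM in Tet. Tet replicate 1 fell inside the EtOH range and the other Tet libraries lay above it. A log2 difference of 0.16 (SE 0.14, 95% interval -0.16 to 0.47, edgeR adjusted p = 0.774) separated means of 254 ± 2.89 and 283 ± 25.8 CPM (SD, n = 3 each). By mean CPM, which is not per length, *ZEB1* stood at the 97.0th percentile of all genes tested. The antisense RNA *ZEB1-AS1* covers 4.58% of its exon bases and had 19.1 to 26.3 CPM (log2 fold change 0.21, edgeR adjusted p = 0.731).

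*ZEB2* (ENSG00000169554.22, chromosome 2, 144364364 to 144521057, minus strand), the paralog that also acts in neural crest, had 103, 96.7 and 102 CPM in EtOH and 95.1, 86.3 and 93.6 CPM in Tet. The 3 Tet libraries lay below the 3 EtOH libraries by a narrow margin, 95.1 against 96.7 CPM at the nearest. The means of 101 ± 3.59 and 91.7 ± 4.70 CPM (SD, n = 3 each) gave a log2 fold change of -0.14 (SE 0.13, 95% interval -0.44 to 0.17, edgeR adjusted p = 0.796). *ZEB2-AS1*, on the opposite strand, shares 4.97% of its exon bases and had 0.677 to 2.02 CPM.

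Within each library *ZEB1* exceeded *ZEB2* per length, by 7.39, 7.84 and 7.57 times in EtOH and by 8.05, 10.6 and 9.39 times in Tet. All 3 Tet ratios lay above all 3 EtOH ratios. The size of the excess depends on the lengths, which take all annotated exons together, 8650 bases for *ZEB1* and 26111 for *ZEB2*. In CPM, *ZEB1* had 251 to 303 and *ZEB2* 86.3 to 103. The log2 ratio of *ZEB2* to *ZEB1* was -2.93 ± 0.04 in EtOH and -3.22 ± 0.20 in Tet (SD, n = 3 each), a difference of -0.29. An exact two-sided permutation test gave p = 0.1, the smallest value that 3 libraries against 3 allow, and 0.2 after adjustment over the 2 ratios tested.

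ZEB and SNAI proteins bind E-boxes of the letters CACCTG. The E-box of MYC and MYCN proteins reads CACGTG. TEAD factors, the partners of YAP and TAZ, recognise the letters CATTCC. All of these were looked for on both strands in RefSeq promoter windows of 300 bases, 250 before a start and 50 after it, on GRCh38.p14, of which there were 15 for 8 of the genes and none for *SNAI2* and *TWIST1*. Of 35116 promoters in the table, 20.6% held CACCTG, 7.26% CACGTG and 14.0% CATTCC. Among the 10 genes, only windows of *ZEB1* and *YAP1* held any, and no match overlapped another. *ZEB1* had CACCTG in 2 of its 7 windows and CATTCC in 1. *YAP1* had CACGTG and CATTCC in its only window. Not all matches of *ZEB1* are printed. Left out are CATTCC, 1 base before the gene start given for the first stretch below, and CACCTG, 242 bases before that given for the second and again after it. The stretches below, on the gene's own strand, are shown because they are the recognition letters of the factors measured here, with the match in capitals. The first begins its match 57 bases before a *ZEB1* start (chr10:31318351-31318374), the second 85 bases before another *ZEB1* start (chr10:31319122-31319145), the third 203 bases before the *YAP1* start (chr11:102110235-102110258) and the fourth 162 bases before it (chr11:102110276-102110299).
ZEB1 E-box, first promoter: aggtgacagCAGGTGagggccggg
ZEB1 E-box, other promoter: gtcgtaaacCAGGTGcggtgggga
YAP1 MYC E-box: cgagcgggtCACGTGcggccggga
YAP1 TEAD letters: gagtgtgcaGGAATGtagcaactt
A match of letters is a description and was not tested as a binding site.

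*YAP1* (ENSG00000137693.14, chromosome 11, 102110447 to 102233424, plus strand) encodes the Hippo pathway coactivator. It stood at 15.3, 44.7 and 16.3 CPM in EtOH and 17.0, 24.1 and 14.6 CPM in Tet. EtOH replicate 2 was 2.83 times the mean of the other EtOH libraries, and the remaining 5 libraries overlapped. The means were 25.4 ± 16.7 and 18.6 ± 4.94 CPM (SD, n = 3 each). With all libraries the difference was -0.45 in log2 (SE 0.41, 95% interval -1.39 to 0.49, edgeR adjusted p = 0.781), and without EtOH replicate 2 it turned to 0.24 (edgeR adjusted p = 0.594). The opposite-strand gene ENSG00000254422 shares 9.95% of its exon bases and was also highest in EtOH replicate 2, at 5.55 CPM against 1.66 to 3.04 CPM in the others. Its part in the *YAP1* values was not tested. *YAP1* also has processed pseudogenes, and reads that aligned to more than 1 place were not counted.

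*WWTR1* (ENSG00000018408.15, chromosome 3, 149517235 to 149736714, minus strand), which encodes TAZ, was the lowest of the 10 genes, with 1.28, 2.81 and 1.55 CPM in EtOH and 1.56, 1.58 and 1.33 CPM in Tet. Again EtOH replicate 2 was the highest library and the others did not separate by label. On the log2 scale the difference was -0.33 (SE 0.37, 95% interval -1.19 to 0.52, edgeR adjusted p = 0.832), and 0.08 without EtOH replicate 2. *YAP1* exceeded *WWTR1* per length by 15.7, 21.0 and 13.9 times in EtOH and by 14.3, 20.2 and 14.5 times in Tet, and the log2 ratio differed by -0.05 between the labels (exact two-sided permutation test, p = 0.8, adjusted p = 0.8 over the 2 ratios).

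Genes that act on YAP and TAZ held 2 of the 5 calls made in the 12 lists set around the 10 genes. Of 21 Hippo core genes and TEAD partners, 20 were tested, and 2 fell and none rose in Tet. *WWC2*, a KIBRA paralog that promotes Hippo signalling, had 44.2, 40.8 and 43.6 CPM in EtOH and 21.2, 17.1 and 16.6 CPM in Tet (a log2 difference of -1.23, SE 0.16, edgeR adjusted p = 0.0368). *PTPN14*, a phosphatase that binds YAP and restrains it, had 45.8, 50.2 and 49.1 CPM in EtOH and 24.9, 19.2 and 22.6 CPM in Tet (a log2 difference of -1.12, SE 0.16, edgeR adjusted p = 0.0428). For both genes the groups were far apart beside the spread within them, and EtOH replicate 2 lay with the other EtOH libraries. Both calls were kept without EtOH replicate 2 and lost without any other library, with adjusted p up to 0.229 and 0.265 in edgeR. *TEAD1*, named after its values were seen as the most abundant TEAD factor, had a mean of 95.1 TPM and a log2 fold change of -0.02 (edgeR adjusted p = 0.987). The median of the tested genes of the list was -0.03, close to that of all genes.

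YAP and TAZ target genes did not follow a single direction. Of 20, 16 were tested, none passed the threshold, 9 had the higher value in Tet and 7 the lower, and at an unadjusted edgeR p under 0.05 there were 3. DESeq2 called 1 of them, *NT5E*, and limma-voom none. *RBMS3*, an RNA-binding protein gene, had 242 to 302 CPM in EtOH and 351 to 527 CPM in Tet (log2 fold change 0.68, edgeR adjusted p = 0.218). *NT5E*, which encodes the ecto-nucleotidase CD73, a mesenchymal surface marker, had 4.35 to 5.77 and 8.26 to 9.44 CPM (0.87, edgeR adjusted p = 0.183). *AJUBA*, a LIM protein gene, had 7.90 to 8.84 and 5.03 to 6.26 CPM (-0.55, edgeR adjusted p = 0.386). For these 3 the groups did not overlap. *NT5E* passed without EtOH replicate 2 (1.01, edgeR adjusted p = 0.0399). The classical target *CCN2* (CTGF), named after its values were seen, had 49 counts over all libraries and was not tested.

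**Figure D2:**
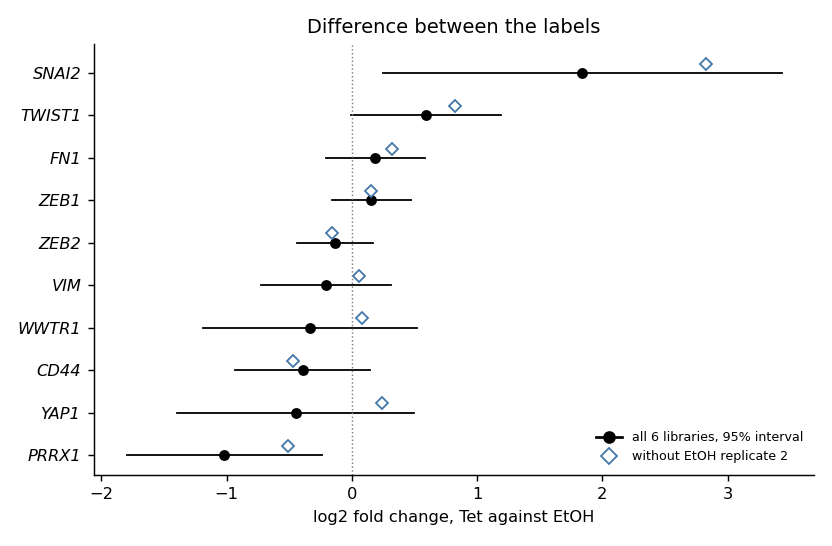
Log2 fold change of the 10 genes in libraries labelled Tet against EtOH, with black points and 95% intervals from all 6 libraries and open diamonds for the fit without EtOH replicate 2. Intervals of *SNAI2* and *PRRX1* leave out 0 before adjustment for the number of genes tested, and the diamonds of *YAP1*, *VIM* and *WWTR1* lie on the other side of 0 from their points.

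*VIM* (ENSG00000026025.16, chromosome 10, 17228241 to 17237593, plus strand) encodes vimentin, the intermediate filament of mesenchymal cells, which many neural precursors also make. It had 176, 265 and 160.5 CPM in EtOH and 146, 209.9 and 166 CPM in Tet. EtOH replicate 2 was the highest and Tet replicate 2 the next, and the groups overlapped. The means of 201 ± 56.7 and 174 ± 32.6 CPM (SD, n = 3 each) gave a log2 fold change of -0.20 (SE 0.23, 95% interval -0.72 to 0.31, edgeR adjusted p = 0.829), which turned to 0.06 without EtOH replicate 2. *VIM* made up 30.8% to 35.0% of the summed TPM of the 10 genes in EtOH and 26.5% to 28.6% in Tet. This part of the sum also depends on the levels of the other genes in it, and its difference between the labels was not tested. *VIM* shares 24.3% of its exon bases with opposite-strand genes, the largest share of the 10, but *VIM-AS1* had only 0.938 to 2.57 CPM and ENSG00000234961 1.48 to 3.96 CPM.

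*FN1* (ENSG00000115414.21, chromosome 2, 215360440 to 215436073, minus strand) encodes fibronectin, a matrix protein bound by integrins. The libraries had 52.0, 62.5 and 46.4 CPM in EtOH and 56.0, 69.9 and 57.1 CPM in Tet. The groups overlapped, and replicate 2 was the highest in each. The means of 53.6 ± 8.17 and 61.0 ± 7.75 CPM (SD, n = 3 each) lay apart by a log2 fold change of 0.19 (SE 0.17, 95% interval -0.21 to 0.58, edgeR adjusted p = 0.784). The value was 0.32 without EtOH replicate 2, 0.0688 without EtOH replicate 3 and 0.0779 without Tet replicate 2. The divergent RNA *FN1-DT* had at most 0.112 CPM and was not tested.

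None of the 14 tested genes among 17 fibronectin receptors and matrix partners passed the threshold, and 5 had an unadjusted edgeR p under 0.05, 2 with the higher and 3 with the lower value in Tet. DESeq2 called 1 of them, *ITGB8*, and limma-voom none. The most abundant were the integrin subunits *ITGB1* (86.5 TPM, log2 fold change 0.05), *ITGA4* (66.8 TPM, 0.20) and *ITGAV* (51.6 TPM, 0.05). *ITGA5*, the partner of *ITGB1* in the main fibronectin receptor, was named after its values were seen and had 19 counts in all. *ITGB8*, the beta subunit of an integrin that releases active TGF-beta, had 16.3 to 18.0 CPM in EtOH and 23.2 to 35.4 CPM in Tet (a log2 difference of 0.85, SE 0.20, edgeR adjusted p = 0.154). *SPARC*, a matrix protein gene, had 51.6 to 58.1 and 41.4 to 51.1 CPM (-0.31, edgeR adjusted p = 0.536).

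*CD44* (ENSG00000026508.20, chromosome 11, 35138882 to 35232402, plus strand) encodes the hyaluronan receptor used as a surface marker of mesenchymal neuroblastoma cells. It was low, with 6.58, 5.12 and 5.82 CPM in EtOH and 4.40, 5.08 and 3.88 CPM in Tet. The groups did not overlap, but only by 5.12 against 5.08 CPM in the replicate 2 libraries. The means were 5.84 ± 0.732 and 4.45 ± 0.603 CPM (SD, n = 3 each), or -0.39 on the log2 scale (SE 0.24, 95% interval -0.93 to 0.14, edgeR adjusted p = 0.618). *CD44-AS1* had at most 0.0992 CPM and *CD44-DT* at most 0.0361 CPM.

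Of 14 *CD44* ligands and partners, 8 were tested and none passed the threshold, with 2 at an unadjusted edgeR p under 0.05. DESeq2 and limma-voom called none of them. The proteoglycan gene *VCAN* (versican) was the most abundant, with 495, 552 and 501 CPM in EtOH and 395, 408 and 412 CPM in Tet (a log2 difference of -0.35, SE 0.13, edgeR adjusted p = 0.393). Of the linkers that tie CD44 to actin, *EZR* had 37.4 to 58.5 CPM in EtOH and 56.5 to 80.8 CPM in Tet (0.63, edgeR adjusted p = 0.332), and *RDX* 116 to 143 and 105 to 112 CPM (-0.22, edgeR adjusted p = 0.668). *EZR* passed without EtOH replicate 2 (0.85, edgeR adjusted p = 0.0425). The third linker, *MSN*, named after its values were seen, had 10 counts in all 6 libraries together.

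Of the wider set of mesenchymal markers, only a part was present beside the 10 genes. Of 25 cytoskeletal and surface markers, 15 had a mean under 1 TPM, and among them, named after their values were seen, *LGALS1*, *ANXA1*, *S100A6* and *CAV1* had 3, 4, 1 and 22 counts over all libraries. Those at the top were *CNN3* (187 TPM), *NES* (83.2 TPM) and *CALD1* (71.7 TPM), which encode calponin 3, nestin and caldesmon. One of the 14 tested markers fell and none rose in Tet. It was *PDGFRA*, a receptor of mesenchymal and neural crest cells, with 98.7, 96.3 and 94.5 CPM in EtOH and 49.4, 54.0 and 44.3 CPM in Tet (a log2 difference of -0.97, SE 0.14, edgeR adjusted p = 0.0464). *NES* had 180.1 to 260.2 CPM in EtOH and 99.5 to 145 CPM in Tet (-0.93, SE 0.21, edgeR adjusted p = 0.135). The *PDGFRA* call was lost with RLE scaling (edgeR adjusted p = 0.0606) and when any library but EtOH replicate 2 was left out (up to 0.339). In DESeq2 *NES* passed as well. *LMNA*, the lamin A gene, had 3.97 to 8.46 and 7.67 to 13.2 CPM (0.63, edgeR adjusted p = 0.556).

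Among 27 core regulators reported for the mesenchymal state, 12 were under 1 TPM, including *FOSL1* with 1 count and *MEOX2* with none, both named after their values were seen. Of the 23 tested, none passed the threshold, and all 5 with an unadjusted edgeR p under 0.05 had the lower value in Tet. DESeq2 called 2 of these, *TBX18* and *GLIS3*, and limma-voom none. *TBX18*, a T-box factor of mesenchymal progenitors, had 9.82, 21.1 and 10.5 CPM in EtOH and 4.61, 6.94 and 4.73 CPM in Tet (a log2 difference of -1.35, SE 0.34, edgeR adjusted p = 0.184). Like *PRRX1*, it had its highest level in EtOH replicate 2 and no overlap between the groups. Without that library its log2 fold change was -0.90 (edgeR adjusted p = 0.0799). *SIX4* had 48.1 to 56.4 and 32.9 to 43.8 CPM (-0.46, edgeR adjusted p = 0.354). *EGR3* rested on a single library, with 20.4 CPM in EtOH replicate 2 and 0.694 to 3.38 CPM in the others (-1.70, SE 1.15, edgeR adjusted p = 0.674), and without it the log2 fold change turned to 1.65 (edgeR adjusted p = 0.0829). The abundant members, *ZNF217* (66.1 TPM), *DCAF6* (57.0 TPM) and *CBFB* (53.4 TPM), had log2 fold changes of 0.28, -0.19 and 0.32 (edgeR adjusted p between 0.671 and 0.855).

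The TGF-beta pathway, which induces the ZEB, SNAI and TWIST factors in many cells, had 12 of 15 genes tested, of which none passed the threshold and 2 had an unadjusted edgeR p under 0.05, 1 in each direction. Its receptors differed in sign: *TGFBR1* had 84.1 to 143 CPM in EtOH and 124 to 201 CPM in Tet (log2 fold change 0.61, edgeR adjusted p = 0.437), whereas *TGFBR2* had 3.49 to 4.51 and 1.81 to 2.74 CPM (-0.74, edgeR adjusted p = 0.384). *TGFBR3* had 6.64 to 11.2 and 5.03 to 6.38 CPM (-0.52, edgeR adjusted p = 0.541). Without EtOH replicate 2, *TGFBR1* passed the threshold (0.91, edgeR adjusted p = 0.0470), and *TGFBR3* was at -0.25. The most abundant genes of the pathway, *SKIL* (90.5 TPM) and *SMAD4* (65.9 TPM), had log2 fold changes of 0.00 and 0.04.

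Epithelial genes, the targets that ZEB and SNAI proteins repress, were close to absent. Of 15, 12 had a mean under 1 TPM, 5 were tested, none passed the threshold and 3 had an unadjusted edgeR p under 0.05. *CDH1*, which encodes E-cadherin and was named after its values were seen, had 0.216 to 0.279 CPM in EtOH and 0.451 to 0.886 CPM in Tet (a log2 difference of 1.51, SE 0.48, edgeR adjusted p = 0.289). *EPCAM* had 0.496 to 0.866 and 1.46 to 1.77 CPM (1.20, edgeR adjusted p = 0.264) and *OVOL2*, a repressor of EMT factors, 0.721 to 1.87 and 0.451 to 0.604 CPM (-1.39, edgeR adjusted p = 0.299). Without EtOH replicate 2, *OVOL2* passed the threshold (-1.69, edgeR adjusted p = 0.0482). N-cadherin (*CDH2*), listed with them as the cadherin gained in EMT, stood at 60.7 TPM and a log2 fold change of 0.20 (edgeR adjusted p = 0.674).

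**Figure D3:**
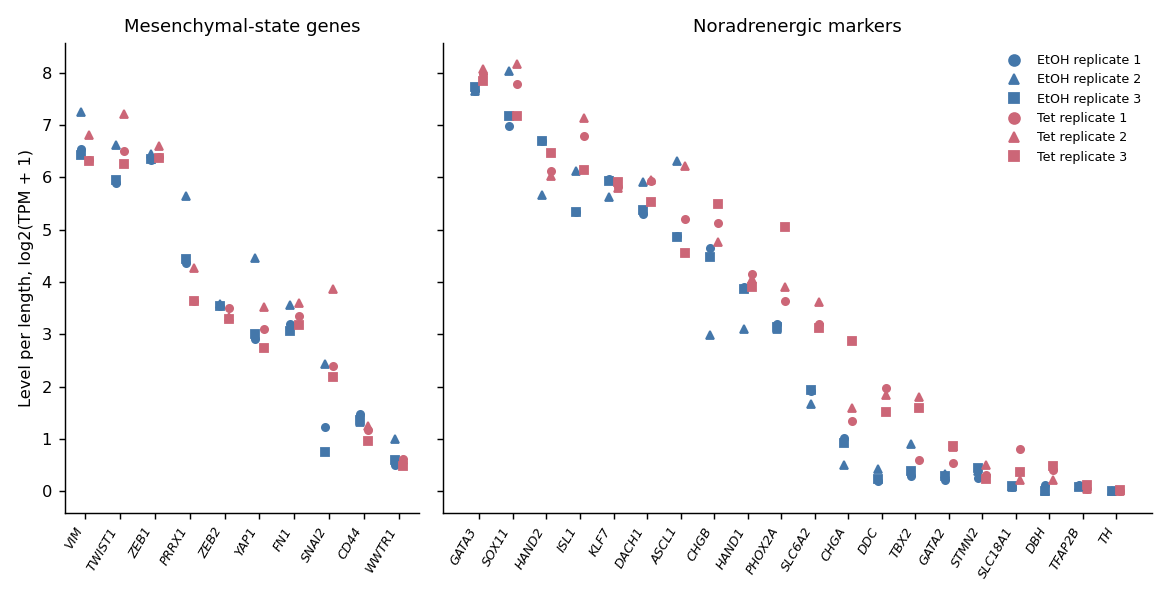
Levels per length as log2(TPM + 1) of the 10 mesenchymal-state genes and of 20 noradrenergic markers in each library, with blue symbols for EtOH, red for Tet and the symbol shape for the replicate number. *VIM*, *TWIST1* and *ZEB1* lie near *HAND2* and *ISL1*, below *GATA3* and *SOX11*, and above most of the remaining genes of both lists.

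Noradrenergic factors were present beside the 10 genes. Per length, *GATA3* (225 TPM) and *SOX11* (196 TPM) were each above *VIM* in mean level. The enzymes of the transmitter itself were nearly absent: *TH* and *DBH*, named after their values were seen, had 1 and 35.5 counts in all. The summed TPM of the 10 genes was 274 to 433 in EtOH and 274 to 416 in Tet, and that of the 21 noradrenergic markers 828 to 995 and 953 to 1206. Of the 16 noradrenergic markers tested, 2 rose and none fell in Tet, beside 0.236% of all genes called in either direction. Values were higher in Tet for 14 of the 16, and for 11069 of all 22443 genes tested. At an unadjusted edgeR p under 0.05 there were 9, all with the higher value in Tet, beside 10.8% of all genes. The median log2 fold change was 0.75, against -0.17 for the 10 mesenchymal-state genes and -0.01 for all genes. The difference between these medians was not tested. The -0.17 rests in part on EtOH replicate 2, without which *YAP1*, *WWTR1* and *VIM* changed sign. *DDC*, the decarboxylase that makes dopamine, had 0.167, 0.361 and 0.198 CPM in EtOH and 3.23, 2.93 and 2.37 CPM in Tet (a log2 difference of 3.55, SE 0.41, edgeR adjusted p = 0.0280). Its EtOH values rest on few counts, and it was not tested in the fit that required at least 10 counts in every library. *SLC6A2*, the noradrenaline transporter, had 5.58, 4.04 and 5.65 CPM in EtOH and 15.7, 22.7 and 17.2 CPM in Tet (1.87, SE 0.24, edgeR adjusted p = 0.0332). DESeq2 called 6 of the list, all higher in Tet. Without EtOH replicate 2, *ISL1* passed the edgeR threshold as well (1.44, edgeR adjusted p = 0.0174). *CHGA* had 0.433 to 1.14 and 1.63 to 7.88 CPM (2.18, edgeR adjusted p = 0.255), and *TBX2* 0.502 to 1.77 and 1.10 to 5.53 CPM (1.99, edgeR adjusted p = 0.315). *CHGA* was at 1.17 without Tet replicate 3. The calls of *DDC* and *SLC6A2*, like those of *WWC2*, *PTPN14* and *PDGFRA*, were lost when any library but EtOH replicate 2 was left out, with the sign kept each time and edgeR adjusted p up to 0.208 for *DDC* and 0.217 for *SLC6A2*.

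**Figure D4:**
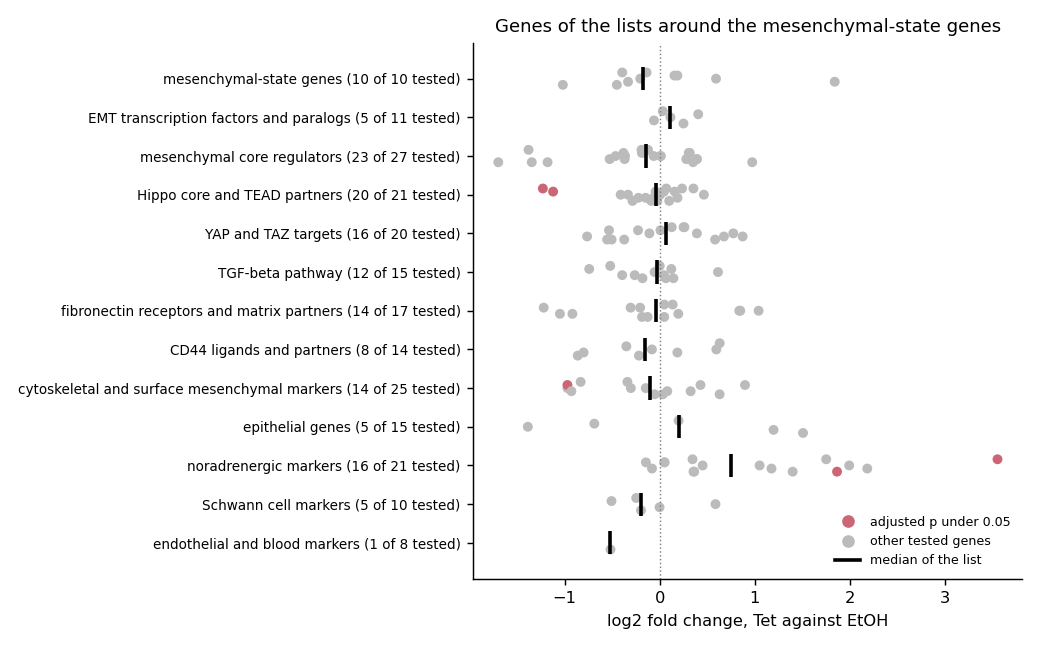
Log2 fold change (Tet against EtOH) of every tested gene in the 10 mesenchymal-state genes and the 12 lists set around them, 1 point per gene, red where the edgeR adjusted p was under 0.05, with a black bar at the median of the list. Red points stand at the low end of the Hippo and surface marker lists and at the high end of the noradrenergic list, and there is none among the 10 genes.

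Medians of the lists lay between -0.20 and 0.20, apart from the noradrenergic list and the endothelial and blood list, which had 1 gene tested. Markers of other cells that carry mesenchymal genes were low. Of 10 Schwann cell markers, 9 had a mean under 1 TPM, and *S100B* had no count. Their summed TPM was 3.01 to 3.37 in EtOH and 1.77 to 4.32 in Tet. None of 8 endothelial and blood markers reached 1 TPM, and their summed TPM was 0.511 to 0.977 in EtOH and 0.440 to 0.626 in Tet. DESeq2 and limma-voom called no gene of either list, nor of the EMT factor, TGF-beta and epithelial lists. Neither list had a gene past the edgeR threshold or at an unadjusted edgeR p under 0.05 (5 and 1 genes tested).

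The genes whose profiles over the 6 libraries came nearest to those of the 10 were found by the root mean square difference of centred log2 CPM among 16719 genes with a mean of at least 1 CPM. Nearest to *PRRX1* were ENSG00000279512 (difference 0.06) and *ANKRD18B* (0.13), and to *TWIST1* ENSG00000233783 (0.07) and *SMAP1* (0.08). For *SNAI2* they were *SLIT3-AS2* at 0.31 and *ARHGAP36* at 0.37. The difference is not scaled to how much a gene varies. By the same measure *SNAI2* deviated from its own mean by 1.33 and *ZEB2* by 0.09. *YAP1* was nearest to *MIR4766* (0.05) and *RIDA* (0.06), and *WWTR1* to *SMG1P6* (0.05) and *TMED5* (0.06). *ATP6V1E1* and *HUNK* came nearest to *ZEB1*, *METTL3* and ENSG00000276564 to *ZEB2*, ENSG00000260664 and *CUL4A* to *VIM*, *STIMATE* and *MIR503HG* to *FN1*, and *TMEM218* and *CENPO* to *CD44*, all within 0.07. None of the 10 was the nearest neighbour of another.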

How the data were processed

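Gene values of 6 libraries were used, 3 labelled EtOH and 3 labelled Tet in the titles. The deposited values are estimated counts per gene: per the file headers, the authors counted unique STAR alignments over GRCh38 exons with featureCounts 1.6.4, dividing read pairs among overlapping genes and ignoring strand. The submitters' processing notes give STAR 2.7.1a and featureCounts 1.5.1. Counts were rounded, filtered with filterByExpr, scaled by TMM and tested with the edgeR 4.0.16 quasi-likelihood test (R 4.3.3), with Benjamini-Hochberg adjustment over all 22443 genes tested and a threshold of 0.05. A standard error is the log2 fold change over the root of F. TPM used the length of all annotated exons of a gene together. Replicates differed by more than sampling noise (chi-square per degree of freedom 11.5 to 147) and were kept separate. The edgeR step was tested on simulated counts with a fixed dispersion and no displaced library. That setting differs from the spread between these libraries, so it does not show how the test behaves on them.

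The 10 genes and the lists were chosen with earlier results of these data known. Named from each list were genes past the threshold, the 3 of highest mean TPM and the 3 of largest change at 1 TPM or more; any other list gene was named after its values were seen. Values of 2 list genes that this rule names are not reported here. Gene overlaps came from the files' exons. Of the list genes past the threshold, *WWC2* shares 21.8% of its exon bases with other genes, *SLC6A2* 17.9%, *PDGFRA* 16.1%, *PTPN14* 7.27% and *DDC* 3.70%. The part of these overlaps in their values was not tested. Alternatives were RLE scaling, other filters, DESeq2 1.42.0, limma-voom (limma 3.58.1), unrounded counts, a replicate block and leaving out each library.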

Additional observations from a re-analysis of the deposited data

How the results depend on the processing

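The main analysis called 33 genes higher and 20 lower in Tet. RLE scaling gave 13 lower, no filter on low counts 185 and 117, and DESeq2 346 and 260. With 1 library left out, between 0 and 361 were higher and between 0 and 331 lower, the largest without EtOH replicate 2. For the 10 mesenchymal-state genes these fits called none in either direction, apart from *SNAI2* without EtOH replicate 2 (0 to 1 higher and 0 to 0 lower over the fits that left out 1 library). In the 12 lists, 2 genes were higher and 3 lower. No filter gave 5 and 5, and DESeq2 8 and 6. A minimum of 10 counts, which left *DDC* out, gave 1 higher. Leaving out 1 library gave 0 to 6 higher and 0 to 5 lower. The replicate block gave 421 and 254 calls over all genes, 2 and 1 among the 10 genes (*SNAI2* 1.93, edgeR adjusted p = 0.00453; *TWIST1* 0.57, 0.0409; *PRRX1* -0.94, 0.00977) and 8 and 6 in the lists. Deviations from the group means correlated at 0.06, 0.51 and 0.22 for replicate numbers 1, 2 and 3. EtOH replicates 2 and 3 correlated best with the Tet library of the same number, but EtOH replicate 1 with Tet replicate 3 (0.38). The main fit took no pairs, and whether libraries of the same number share a factor was not tested. With 1 library left out, log2 fold changes ranged from -0.74 to 0.24 for *YAP1*, -0.57 to 0.0778 for *WWTR1* and -0.37 to 0.0566 for *VIM*, and were above 0 without EtOH replicate 2. The log2 ratio of *YAP1* to *WWTR1* ranged from -0.21 to 0.12, and that of *ZEB2* to *ZEB1* from -0.39 to -0.19, when 1 library was left out. With permutation within replicate numbers the smallest possible p was 0.25. *PDGFRA* lost its call with RLE scaling (adjusted p = 0.0606). Of 130 alternative values for the 10 genes, 3 changed sign and 4 passed the threshold, and the rest kept both. By CPM in place of TPM, *ZEB1* led and *VIM* came next. The cause of these shifts was not tested. Depth limits *WWTR1*, *CD44* and *SNAI2*, which had 25 to 578 counts in a library.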
